A study of Mus musculus with 8 samples.

Results

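Lipid-associated macrophages are macrophages of fatty tissue that load lipid into an enlarged lysosomal system, and 10 genes commonly used to recognise them were followed here in fatty-diet mouse liver: Trem2, Gpnmb, Cd9, Spp1, Cd68, Lgals3, Cd63, Mmp12, Itgax and Tyrobp. The members were taken by gene symbol from the deposited probe table, which named 21180 genes on 40646 probes. All 10 genes were found there, on 14 probes. Total RNA of whole liver came from 4 miR-223 knockout (miR-223KO) samples and 4 wild-type (WT) samples. All 8 were labelled as male, C57BL/6J and on a high-fat diet for 3 months, so no sample on a control diet was part of the comparison. Age, the design of the knockout allele and the use of littermates were not given in the labels. Whether the samples are separate mice is not stated, so a p-value here reflects only how far these samples scatter, which may be partly technical.

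Each liver RNA was labelled with Cy5 and hybridised to its own array against an assorted mouse RNA in Cy3, so every level below is a log2 ratio of liver over this mixed reference. The 8 arrays lay on 2 slides, each with 2 miR-223KO and 2 WT samples. Between 49.5% and 69.8% of the spots were well above background in Cy5. WT replicates 3 and 4 had the dimmest arrays, with a median Cy5 intensity of 87 and 79.5. The array of miR-223KO replicate 2 was nearly as dim, with a median of 93 and 53% of spots well above background. The hepatocyte gene Alb stood above the reference on all arrays, at log2 ratios of 1.39 to 2.10 in miR-223KO and 1.80 to 3.06 in WT. The table held no probe named Mir223, so the knockout itself was not checked on these arrays. Of 16708 genes and unnamed probes tested with limma, 2 passed the threshold of 0.05 after Benjamini-Hochberg adjustment, 1 higher and 1 lower.

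TREM2 is a lipid-sensing receptor of the macrophage surface. It has no signalling tail of its own and pairs with the adaptor DAP12, the product of Tyrobp, whose tyrosine motif recruits the kinase SYK. In fatty liver, macrophages with high TREM2, GPNMB, CD9 and osteopontin gather around lipid-laden and injured hepatocytes and in scarred areas. Several members are not restricted to them, since bile duct cells make osteopontin and many cell types carry CD9, CD63 and galectin-3. In whole liver RNA, fewer cells of a type and less RNA per cell cannot be told apart.

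The microRNA removed in the knockout is shown first, because its absence is the only difference between the groups that the labels name. RefSeq lists mmu-miR-223-3p on the forward strand of the X chromosome at chrX:96242884-96242905 (build GRCm38.p6), and its seed, bases 2 to 8, is in capitals:
mmu-miR-223-3p: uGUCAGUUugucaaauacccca
Of the 14 probes of these genes, 0 hold the letters AACTGAC, the complement of the seed, on either strand, against 0.735% of the 40554 probes with a sequence. The probes are 60 bases long and cover only a short stretch of each transcript, so this says nothing about the rest of it.

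Trem2, Cd9 and Itgax each had a pair of probes that differed in sequence and gave different values, so their sequences are shown. The longest run that the probes of a pair share is 7 bases for Trem2, 5 for Cd9 and 6 for Itgax. Sequences are from the authors' table, on the strand it gives, in lower case since no stretch is singled out:
Trem2 A_51_P269546: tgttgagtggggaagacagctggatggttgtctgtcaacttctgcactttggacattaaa
Trem2 A_51_P269549: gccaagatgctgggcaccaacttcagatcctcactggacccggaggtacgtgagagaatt
Cd9 A_51_P320852: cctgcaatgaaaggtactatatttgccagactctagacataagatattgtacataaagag
Cd9 A_51_P323341: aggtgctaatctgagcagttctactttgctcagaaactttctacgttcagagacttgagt
Itgax A_51_P303424: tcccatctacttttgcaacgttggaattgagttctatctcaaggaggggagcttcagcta
Itgax A_52_P424887: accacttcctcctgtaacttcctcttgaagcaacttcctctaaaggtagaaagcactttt
The authors' table ties the second Cd9 and second Itgax probes to cDNA clones and the other 4 to RefSeq transcripts. Whether the probes of a pair read the same transcript was not tested.

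Set against WT, miR-223KO livers show how these macrophage genes stand in fatty-diet liver without miR-223, a myeloid microRNA. Trem2, Cd68, Tyrobp and Cd9 had the highest mean log2 fold changes, between 0.42 and 0.57, while Cd63, Lgals3, Itgax and Spp1 lay between -0.10 and 0.14. Gpnmb and Mmp12 were not well above background on any array. None of the 8 measured genes passed the limma test over all genes (0 of 8, where 0.012% of all tested passed, 0.00599% higher and 0.00599% lower). At an unadjusted p under 0.05 in limma stood 1 of 8, Trem2, against 4.67% of all tested, 2.3% higher and 2.36% lower. The groups did not overlap for 0 of 8, against 3.08% of all tested, 1.63% with miR-223KO above and 1.44% with it below. The median log2 fold change of the 8 was 0.28, with 6 higher and 2 lower, and that of all tested was -0.01, with 48.2% higher.

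**Figure D1:**
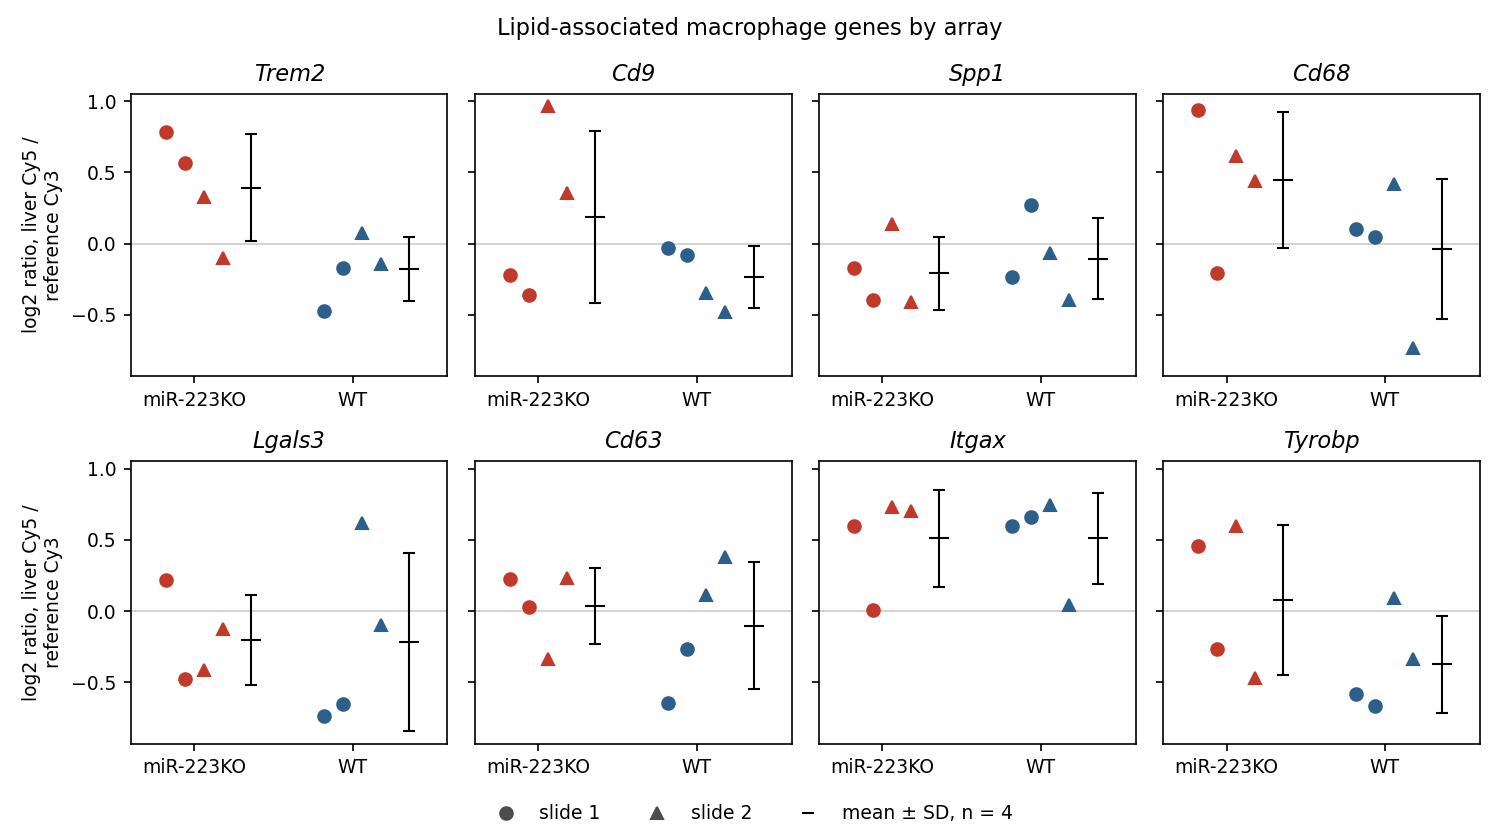
Log2 ratio of liver Cy5 over reference Cy3 (vertical axis) of the 8 measured genes on each array, with miR-223KO in red to the left of WT in blue. Circles are arrays of slide 1, triangles arrays of slide 2, and bars the mean ± SD of 4 arrays. The groups overlap in every panel. The second Trem2 point of miR-223KO, at 0.56, depends on how a bright local background was handled.

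The brighter Trem2 probe (A_51_P269546) had log2 ratios of 0.78, 0.56, 0.33 and -0.10 in miR-223KO replicates 1 to 4, against -0.47, -0.17, 0.07 and -0.14 in WT replicates 1 to 4. In 3 of 4 miR-223KO samples the value lay above every WT sample, and the fourth lay within the WT range. The means were 0.39 ± 0.38 in miR-223KO and -0.18 ± 0.23 in WT (SD, n = 4 each), a difference of 0.57 (SE 0.21), or 1.49-fold. Its unadjusted p in limma was 0.0159, with an interval of 0.12 to 1.02 (95%, without regard to the number of genes), and its adjusted p was 0.981, so it did not pass.

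The Trem2 spot of miR-223KO replicate 2 sat in a bright patch of the slide. Its Cy5 intensity was 162 and its local Cy5 background 211, against an array median background of 52.5, and it was the 1 spot of 184 for these genes with a background above the spot. Flagged local backgrounds were replaced by the array's median, which gave the 0.56 above. With the local background as read, an alternative added after seeing the data, the value of this array was -0.99 and the Trem2 difference 0.19 (unadjusted p = 0.526 and adjusted p = 0.96 in limma). Without this array the difference was 0.51 (adjusted p = 0.889 in limma). Leaving out miR-223KO replicate 1 gave 0.44, and leaving out WT replicate 1 gave 0.47. The unadjusted p in limma was then 0.066 and 0.0531.

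The dimmer Trem2 probe (A_51_P269549) was well above background on 2 of 4 miR-223KO and 2 of 4 WT arrays. Its log2 ratios were 0.01, 0.13, -0.52 and 0.05 in miR-223KO, against -0.56, -0.04, -0.21 and -0.14 in WT, a difference of 0.16 (SE 0.17). It had the direction of the first probe with a smaller size, and the groups overlapped, with the lowest miR-223KO value close to the lowest WT value. With the probes averaged the difference was 0.37. In the authors' deposited table the log2 fold change was 0.98 for the first probe and 0.26 for the second.

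Tyrobp, the DAP12 adaptor, read 0.46, -0.27, 0.60 and -0.47 in miR-223KO, against -0.58, -0.67, 0.09 and -0.34 in WT. In miR-223KO, replicates 1 and 3 stood above every WT sample and replicates 2 and 4 stood inside the WT range. The difference was 0.46 (SE 0.25, adjusted p = 0.981 in limma, 95% interval -0.08 to 0.99). Leaving out single arrays moved it between 0.28, without miR-223KO replicate 3, and 0.64, without miR-223KO replicate 4. Trem2 and Tyrobp varied together over the 8 arrays, with a Pearson r of 0.73 (exact permutation p = 0.0436) and a Spearman rho of 0.83 (exact permutation p = 0.0154). Over the 28 pairs of genes compared, the adjusted values were 0.53 for Pearson and 0.431 for Spearman, so the pair did not pass. The r was 0.60 after each group was centred on its mean, and 0.89 without the 2 arrays farthest from the Trem2 median.

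**Figure D2:**
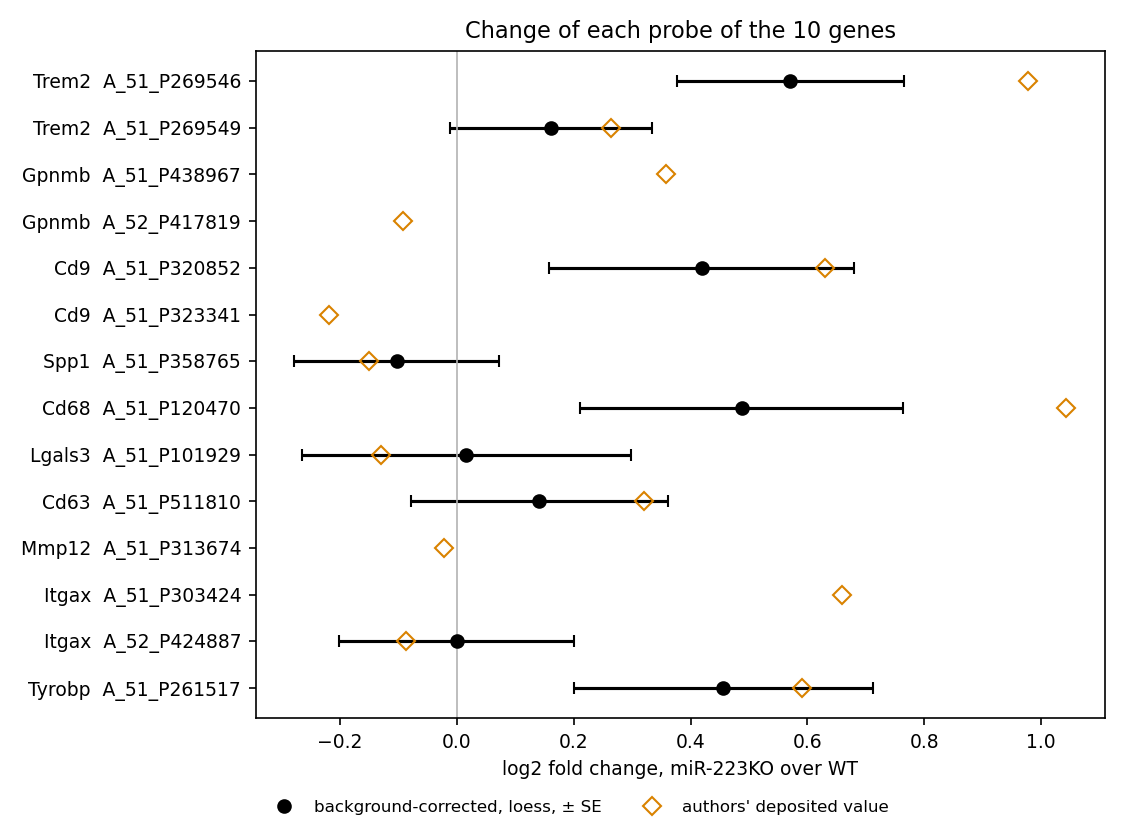
Log2 fold change of miR-223KO over WT (horizontal axis) for the tested probes, ± SE from a fit over all probes (black). Open diamonds are the values of the authors' deposited table for all 14 probes, the 5 without a black point being not well above background on any array. The authors' value lies farther from 0 for every tested probe, among them Trem2 (0.98) and Cd68 (1.04). For Lgals3 it lies on the other side of 0 (-0.13).

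Cd68, a lysosomal glycoprotein used as a general macrophage marker, had log2 ratios of 0.94, -0.20, 0.61 and 0.44 in miR-223KO, against 0.10, 0.05, 0.42 and -0.73 in WT. In miR-223KO, 3 of 4 samples were above all WT samples, and replicate 2 was below 3 of the 4. The difference was 0.49 (SE 0.27, adjusted p = 0.981 in limma), or 1.4-fold. WT replicate 4, whose spot had a Cy5 intensity of 64 over a background of 51.5, was not well above background and carried much of the size. Without it the difference was 0.26 (adjusted p = 0.983 in limma), and without miR-223KO replicate 1 it was 0.32. The authors' deposited table gives 1.04 for Cd68.

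Cd9 and Cd63 encode tetraspanins, membrane proteins that organise surface and endosomal complexes, CD63 being a marker of late endosomes and lysosomes. The brighter Cd9 probe read -0.22, -0.36, 0.97 and 0.36 in miR-223KO, against -0.03, -0.08, -0.35 and -0.48 in WT. The samples of miR-223KO fell apart by slide, with replicates 1 and 2 inside the WT range and replicates 3 and 4 above it. The difference was 0.42 (SE 0.26, adjusted p = 0.981 in limma) and 0.16 without miR-223KO replicate 3. The other Cd9 probe was not well above background on any array.

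Cd63 read 0.23, 0.03, -0.34 and 0.23 in miR-223KO, against -0.64, -0.27, 0.11 and 0.38 in WT. The WT values enclosed all miR-223KO values. The difference was 0.14 (SE 0.23, adjusted p = 0.991 in limma, 95% interval -0.34 to 0.63). Without WT replicate 1, the lowest sample, it was -0.04.

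Spp1 encodes osteopontin, a secreted phosphoprotein of macrophages and bile duct cells. It was the 1 gene with 10 spots per array, so the spread of its repeat spots could be seen. Its log2 ratios were -0.17, -0.39, 0.13 and -0.41 in miR-223KO, against -0.24, 0.27, -0.07 and -0.40 in WT. Both groups covered nearly the same range. The SD of the 10 spots within an array, outlier-flagged spots included, was 0.18 to 0.52. This is the spread of single spots, and the error of their mean is smaller. The array means, with flagged spots left out, had an SD of 0.25 in miR-223KO and 0.28 in WT. Spots of an array share its labelling and hybridisation, so the spot SD does not hold the error of those steps. The difference was -0.10 (SE 0.20, adjusted p = 0.991 in limma, 95% interval -0.53 to 0.32). The other 9 genes rested on 1 spot per probe and array, and their spot error was not measured.

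Lgals3, which encodes the sugar-binding lectin galectin-3, read 0.22, -0.48, -0.41 and -0.13 in miR-223KO, against -0.74, -0.65, 0.62 and -0.10 in WT. WT samples were at both extremes, the lowest on slide 1 and the highest on slide 2. The difference was 0.02 (SE 0.27, adjusted p = 0.998 in limma, 95% interval -0.56 to 0.59), an interval that leaves room for a change of about the size seen for Trem2 in either direction.

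Itgax encodes the integrin CD11c, carried by lipid-associated macrophages and dendritic cells. Its measured probe (A_52_P424887) read 0.60, 0.01, 0.73 and 0.70 in miR-223KO, against 0.60, 0.66, 0.74 and 0.04 in WT. Each group had 1 low array, miR-223KO replicate 2 and WT replicate 4, and was otherwise within 0.60 to 0.74. The means were 0.51 in both groups, with SDs of 0.34 in miR-223KO and 0.32 in WT, and the 95% interval of the difference was -0.46 to 0.46. The probe designed on the RefSeq transcript (A_51_P303424) was not well above background on any array, and for it the authors' deposited table gives a log2 fold change of 0.66.

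Gpnmb, a lysosome-linked glycoprotein that is strongly induced in lipid-loaded macrophages, had 2 probes, and Mmp12, the macrophage elastase, had 1. Their Cy5 intensities were 60 to 83.5 and 52 to 92 for Gpnmb and 59 to 86 for Mmp12. On each array these intensities stood above the spot's local background, but the scanner software did not flag the spots as well above background. No fold change is given for them.

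**Figure D3:**
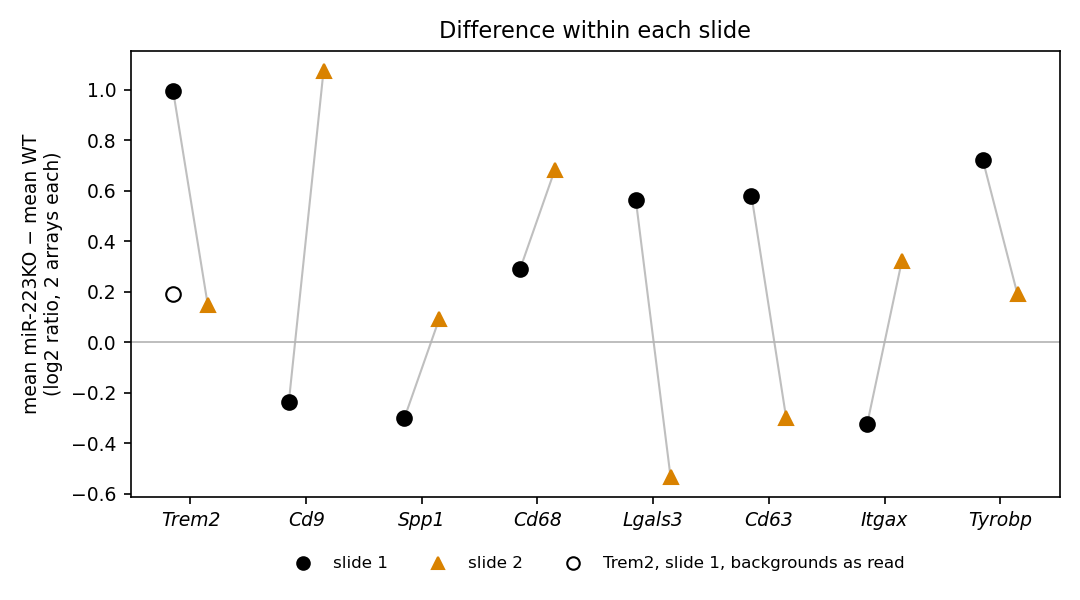
Mean of the miR-223KO arrays minus mean of the WT arrays (log2 ratio, vertical axis) within slide 1 (black circles) and slide 2 (orange triangles), 2 arrays of each group per slide. The open circle is Trem2 on slide 1 with local backgrounds as read (0.19). Trem2, Cd68 and Tyrobp lie above 0 on both slides, and the other 5 genes change sign between slides.

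Trem2, Cd68 and Tyrobp were higher in miR-223KO on both slides, with differences of 1.00 and 0.15 for Trem2, 0.29 and 0.68 for Cd68, and 0.72 and 0.19 for Tyrobp. With local backgrounds as read the Trem2 differences were 0.19 on slide 1 and 0.18 on slide 2. The other 5 measured genes had opposite directions on the 2 slides, as had 54.8% of all tested. Cd9 stood at -0.24 on slide 1 and 1.07 on slide 2, and Lgals3 at 0.56 and -0.53. Cd63 stood at 0.58 and -0.30, Itgax at -0.32 and 0.32, and Spp1 at -0.30 and 0.09. One direction on both slides was seen for 3 of 8 members and for 45.2% of all tested, and 21.6% of all tested were higher on both. With slide as a block 0 of 8 passed, the smallest adjusted p being 0.928 in limma.

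Across arrays the 8 genes did not move as one block. In miR-223KO replicates 1 and 3, 6 of the 8 genes stood above their own mean over all arrays, and 5 did in replicate 4 and 2 in replicate 2. In WT replicates 1, 2, 3 and 4 this was so for 1, 2, 6 and 2 genes. WT replicate 3 thus stood with the higher miR-223KO samples, and miR-223KO replicate 2 with the lower WT samples. Over the 28 pairs of genes the median Pearson r was 0.34 and 19 pairs were above 0. The smallest adjusted p was 0.53 (exact permutation). The 3 highest were Cd68 with Itgax (0.78), Trem2 with Tyrobp (0.73) and Lgals3 with Cd63 (0.69), and the lowest was Spp1 with Cd63 (-0.50). All genes of an array share its labelling and hybridisation, and 2.94% of 12866 other named genes had an r over 0.7 with the mean of the 8. Among the genes most like that mean over the 8 arrays were Col6a1 (r = 0.96) and Ttc23 (r = 0.96), given as a description.

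**Figure D4:**
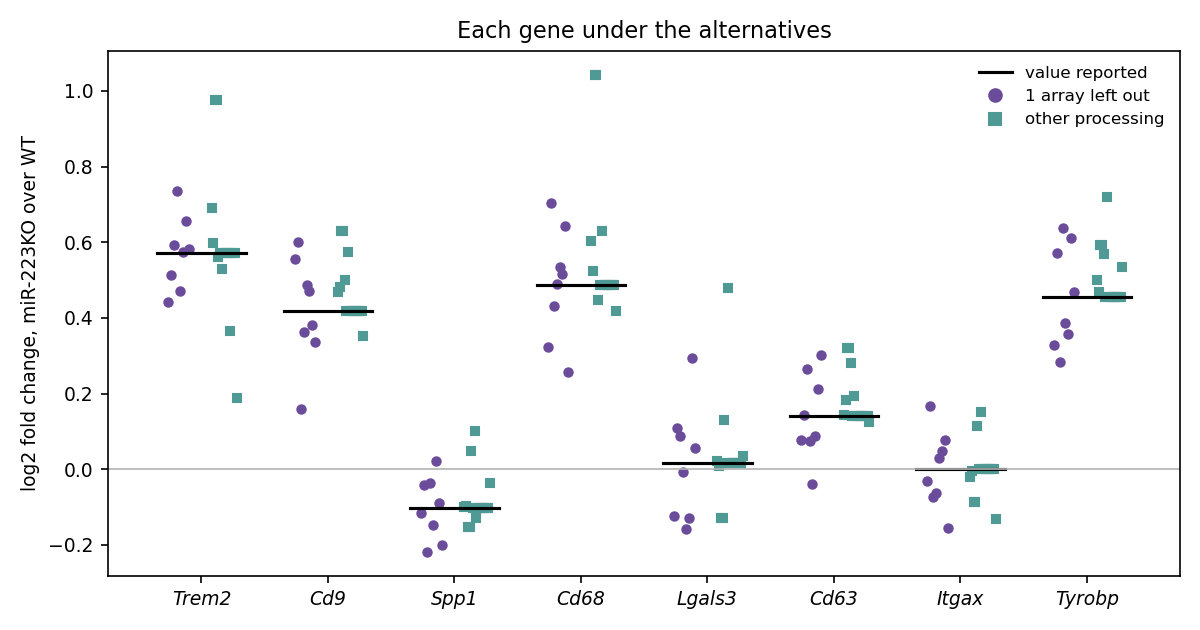
Log2 fold change of miR-223KO over WT (vertical axis) of each measured gene as reported (black line), with 1 array left out (purple circles) and under other processing (green squares). Trem2, Cd9, Cd68 and Tyrobp stay above 0 throughout, between 0.16 and 1.04, and the other 4 genes cross 0. Several green squares repeat the reported value, since those settings could not move it.

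The split between the channels differed among the genes. After normalisation between arrays, Trem2 differed by 0.53 in liver Cy5 and -0.04 in reference Cy3, Cd68 by 0.63 and 0.14, and Cd9 by 0.57 and 0.15. Tyrobp differed by 0.72 and 0.26, and Lgals3 by 0.48 and 0.46, in the same order of channels. In that order, Cd63 differed by 0.19 and 0.05, Itgax by 0.15 and 0.15, and Spp1 by 0.10 and 0.20. For Lgals3 and Itgax the reference thus moved about as much as the liver sample, and for Spp1 it moved more. How a ratio parts between channels depends on that normalisation step.

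Other genes of the lipid-associated programme and of the TREM2 pathway are given by their counts. Among 34 other lysosomal and lipid genes 30 were measured, 17 higher and 13 lower, with a median log2 fold change of 0.05, and 0 passed in limma. Ctss, the lysosomal protease cathepsin S, had the smallest p of them, at 0.64 (SE 0.21, adjusted p = 0.981 in limma), with 0.70, 0.88, 0.37 and 0.78 in miR-223KO, against -0.24, 0.15, 0.49 and -0.23 in WT. In miR-223KO, 3 of 4 values lay above every WT value. Cd36, a scavenger receptor and fatty acid transporter, stood at 0.54 (SE 0.25) on the 6 arrays with an unflagged spot.

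Among partners and ligands of TREM2 14 of 18 genes were measured, 8 higher and 6 lower, with a median of 0.01, and 0 had an unadjusted p under 0.05 in limma. The kinase gene Syk stood at 0.05 (SE 0.18) and the DAP10 adaptor gene Hcst at -0.05 (SE 0.21). Apoe, a lipid-carrying ligand of TREM2, stood at -0.14 (SE 0.27), and Adam10, a protease that sheds TREM2 from the cell surface, at -0.34 (SE 0.20). Apoa1 stood at -0.55 (SE 0.28). None of these passed.

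Markers of the other cells in liver are given beside the members, and their part in the members' values was not tested. Resident Kupffer cell genes were higher in 11 of 16, with a median of 0.18. Over the 13 of them with a value on all 8 arrays, the mean log2 ratio per array ran from -0.11 to 0.31 in miR-223KO and from -0.30 to 0.43 in WT. Clec1b stood at 0.56 (SE 0.19) and Csf1r, the receptor for the macrophage growth factor, at 0.54 (SE 0.20). The Kupffer-restricted Clec4f stood at 0.19 (SE 0.22) and Timd4 at 0.21 (SE 0.20). Clec4f had no value for replicate 3 of either group. Monocyte genes were higher in 5 of 9 (median 0.14), with Lyz2 at 0.76 (SE 0.46) and Cx3cr1 at 0.33 (SE 0.23), while Ccr2, F13a1 and Vcan were too dim to be tested. Lyz2 read 1.56 in miR-223KO replicate 1, and its other miR-223KO values lay within the WT range. Lyz2 had no value for WT replicate 1, and Cx3cr1 had none for WT replicate 2. Over the 7 monocyte genes with a value on all arrays, the mean ran from -0.0095 to 0.13 in miR-223KO and from -0.16 to 0.22 in WT.

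Dendritic cells also carry CD11c, but Itgax was not on their list. Dendritic cell genes were higher in 4 of 8 and lower in the other 4. The 4 higher ones were H2-Ab1 (0.96), H2-Aa (1.07), H2-Eb1 (0.80) and Cd74 (0.59), which serve antigen presentation on MHC class II and had an unadjusted p under 0.05 in limma. The 4 lower ones were the markers narrower to dendritic cells, Xcr1 (-0.24), Zbtb46 (-0.25), Flt3 (-0.15) and Itgae (-0.045), and none of them passed. The list's median of 0.27 lies between these sets, near no gene. The list averaged 0.01 to 0.50 per array in miR-223KO and -0.22 to -0.08 in WT, with only its MHC class II genes higher in miR-223KO. Cd209a, Clec9a and Ccr7 were too dim to be tested. Bile duct genes, of the other cell type that makes osteopontin, were lower in 5 of 8 with a median of -0.05. The 6 with a value on all arrays averaged -0.26 to 0.23 in miR-223KO and -0.076 to 0.23 in WT. Krt7, without a value for WT replicate 2, stood at -0.58 (SE 0.28), and Sox9 at -0.36 (SE 0.22).

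Neutrophil genes were higher in 4 of 10 (median -0.04). The 9 with a value on all arrays averaged -0.014 to 0.15 in miR-223KO and -0.14 to 0.09 in WT, with S100a9 at 0.61 (SE 0.21) and Ltf at 0.19 (SE 0.20). S100a8 and Elane were too dim to be tested. Endothelial genes were higher in 7 of 10 (median 0.12), with Flt4 at 0.51 and Lyve1 at 0.41, and stellate cell genes in 5 of 10 (median 0.07), with Col1a1 at 0.35 and Pdgfrb at 0.24. T and NK cell genes were higher in 3 of 7 (median -0.06), with Ncr1 at -0.40 and Nkg7 at 0.22, and B cell genes in 3 of 5 (median 0.05), with Ms4a1 at 0.40 and Ighm at -0.32. Only 4 of 10 hepatocyte genes were measured. These 4 were all lower (median -0.44), with Alb at -0.66 (SE 0.25) and Serpina1c at -0.68 (SE 0.27). Of these 4, Alb alone had a value on all arrays. Apoa2, Ass1, Cps1, Cyp2e1 and Tat lost values to outlier flags and were not tested, and Pck1 was not on the array. No gene of these lists passed the limma test over all genes, where the smallest adjusted p was 0.488 (H2-Ab1).

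**Figure D5:**
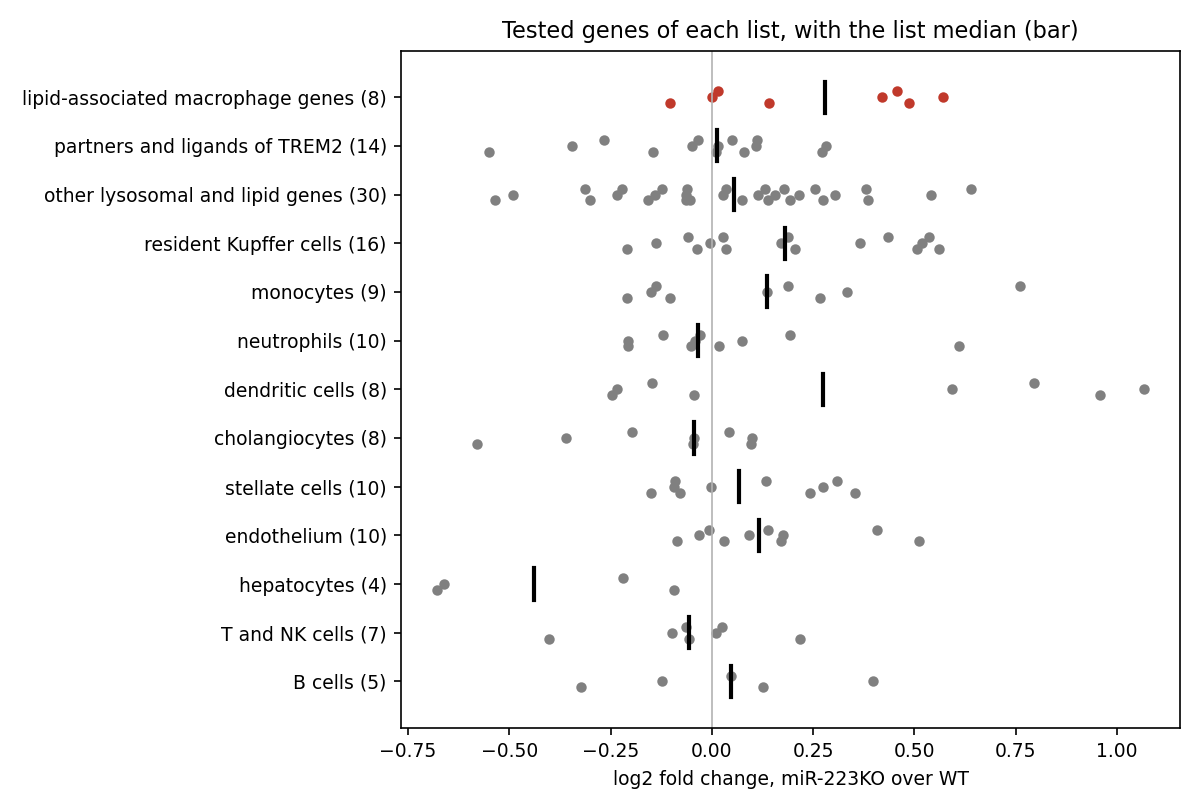
Log2 fold change of miR-223KO over WT (horizontal axis) of each tested gene, 1 point per gene, by list, with the number of tested genes in brackets and the list median as a bar. The 8 lipid-associated macrophage genes (red) have a median of 0.28. The dendritic cell list falls into 4 MHC class II genes above 0 and 4 other markers below it.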

How the data were processed

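The authors deposited 1 scanner file per array, holding median spot and local background intensity per channel, made with Agilent Feature Extraction 12.0.3.1 per the file headers. Their LogRatio column is deposited on the log10 scale (red over green). A further table by the authors, 40646 probes long, gives normalised Cy5 over Cy3 as log2 values, and its deposited fold change matches the difference of the group means, miR-223KO over WT, with an error of at most 5.2e-07.

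From the median intensities, background was corrected with normexp (offset 50) and ratios were normalised by loess within arrays in limma 3.58.1 (R 4.3.3), controls and outlier-flagged spots having weight 0. Flagged spots were left out (5 of 184 spots of these genes), and flagged local backgrounds were replaced by the array median (9 of 184). Spots of a probe were averaged. A probe was tested when well above background in Cy5 on at least 4 of 8 arrays with at least 3 values per group, and a gene was represented by its brightest tested probe. The fit used lmFit and eBayes (two-sided), and p-values were adjusted by Benjamini-Hochberg over all 16708 tested. The number of arrays limits the precision (median SE 0.21). The test was also tried on data simulated from the means and SDs of these arrays. The log2 changes put in were 1, 2 and 3, so the trial does not show how smaller changes fare.

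Named genes are all 10 members and, from each list, those past the test (at most 4) or else the 2 with the smallest p, with the 3 genes most like the members' mean, of which 1 is not reported here. Syk, Hcst, Apoe, Clec4f, Timd4, H2-Eb1, Cd74, Xcr1, Zbtb46, Flt3 and Itgae were added after their values were seen. The members and lists were chosen with earlier results of these data known. Replicate numbers did not pair the arrays (correlation of deviations -0.02 to 0.06).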

Additional observations from a re-analysis of the deposited data

Results flagged for a closer look

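In 2 of 28 groups of 4 arrays, both of Gpnmb probes, 1 array stood far from the other 3, and chance alone gives about 1 in 20. The first was miR-223KO replicate 2 on probe A_51_P438967, at a log2 ratio of -0.33, against 0.12 to 0.20 on the other miR-223KO arrays. The other was WT replicate 2 on probe A_52_P417819, at -0.12, against 0.06 to 0.08 on the other WT arrays. Neither probe was well above background on any array.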

How the results depend on the processing

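Under each of 24 alternatives, 0 of the measured lipid-associated macrophage genes passed. Trem2, Cd9, Cd68 and Tyrobp kept their direction. The range was 0.19 to 0.98 for Trem2 (unadjusted p under 0.05 in limma in 20 of 24), 0.16 to 0.63 for Cd9, 0.26 to 1.04 for Cd68 and 0.28 to 0.72 for Tyrobp. Several settings could not move the Trem2 difference of 0.57, so the 20 are not separate checks. The scanner's processed signals and the authors' table both gave 0.98 for Trem2. The median of the measured members stayed between 0.14 and 0.50. The sign turned for Lgals3 with the scanner's processed signals and in the authors' deposited table (both -0.13), for Spp1 with median centring (0.049) and in Cy5 alone (0.10), and for Itgax with the same settings (0.11 and 0.15), and the cause was not tested. Leaving out single arrays gave -0.16 to 0.29 for Lgals3, -0.16 to 0.17 for Itgax, -0.039 to 0.30 for Cd63 and -0.22 to 0.022 for Spp1. Over all genes the count of 2 became 4 with a normexp offset of 16. It became 1 with processed signals, the authors' table, median centring, Cy5 alone, flagged spots kept, local backgrounds as read (an alternative chosen after seeing the data), a filter asking for all 8 arrays above background (where Cd68 was not tested) or probes averaged per gene, and ran from 1 to 3 without single arrays. The replicate block left the count at 2 and 0 of 8 members past (smallest adjusted p 0.989 in limma). Deviations of same-numbered samples correlated at -0.02 to 0.06, so the numbers did not pair the samples. Signal over background limits Gpnmb, Mmp12 and Cd68 in WT replicate 4. The brighter Trem2 probe was well above background on every array but also dim, with a Cy5 intensity of 80 over a background of 51.5 in WT replicate 4.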
